A study of Chlamydomonas reinhardtii with 4 samples.

Results

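Peroxiredoxins are small enzymes that reduce hydrogen peroxide and other peroxides with a reactive cysteine, and the genes described here are those of the unicellular green alga Chlamydomonas reinhardtii whose symbol in the deposited tables is PRX followed by a number. This rule found 7 of the 17741 genes in each table, PRX1 to PRX7. RNA-seq had been made from the wild-type strain FACHB-1121, grown in TAP medium (an acetate-containing medium) at a fixed temperature under light with agitation. Cultures with 0.5 mg/L silver nanoparticles (AgNPs) were sampled after 2 h and after 12 h, and untreated control cultures of the same strain at the same times. Each of the 4 groups held 1 library, so no difference could be set against a spread between replicates, no test between conditions was run, and all differences below compare single libraries.

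During its reaction with a peroxide the cysteine of a peroxiredoxin is oxidised, and thioredoxins, glutaredoxins or related thiol donors return it to the reduced state. In plants and algae several peroxiredoxins work in the chloroplast, where photosynthetic electron transport forms peroxide. The typical 2-Cys peroxiredoxins among them can also be overoxidised by peroxide, and sulfiredoxin reverses this. Silver is known to bind thiol groups.

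Values were FPKM, fragments scaled to transcript length and library size by the submitters, so that levels of different genes can be compared within a library. In these bulk cultures a change in RNA per cell and a change in the mix of cells cannot be told apart. The 2 h control stood apart in scale: its FPKM values summed to 492502, against sums between 1143199 and 1663726 for the others. Read depth is unknown. Ratios were compared over 3271 genes whose FPKM averaged 5 or more across the libraries, called tested genes below. Every PRX gene was among them, from PRX7 with the lowest mean (8.13 FPKM) to PRX1 with the highest (223 FPKM). PRX6 had a mean of 43.4 FPKM but stood below 5 FPKM in the 12 h control. Because the median tested gene was itself higher with AgNPs, by a log2 ratio of FPKM + 1 of 0.48 at 2 h and 0.44 at 12 h, each ratio is given together with its place among the tested genes. That place, the share of tested genes with a lower ratio, depends little on how libraries are scaled. Over the scalings tried and added constants of 0.1, 1 or 5 FPKM, it still ran from 47.2% to 63.4% for PRX1 with AgNPs at 2 h. For PRX6 with AgNPs at 12 h it ran from 75.8% to 92.0%, and for PRX7 at 2 h from 21.4% to 22.0%. Levels set side by side between libraries are on the deposited scale.

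The genes lie on 5 chromosomes, with PRX2 and PRX4 on chromosome 2 and PRX3 and PRX6 on chromosome 10. PRX1 (Cre06.g257601) spans chromosome 6, 1208195 to 1210042, and PRX2 (Cre02.g114600) chromosome 2, 6290309 to 6292284. PRX3 (Cre10.g449550) spans chromosome 10, 4073585 to 4075625, and PRX6 (Cre10.g422300) lies on the same chromosome at 676380 to 678971. PRX4 (Cre02.g080900) spans chromosome 2, 1076500 to 1079245, PRX5 (Cre01.g014350) chromosome 1, 2511841 to 2514278, and PRX7 (Cre17.g743897) chromosome 17, 6652103 to 6657794. No other gene of the tables overlapped any of the 7. Their spans, introns included, ran from 1848 bp for PRX1 to 2746 bp for PRX4, with PRX7 longer at 5692 bp, a span above that of 86.4% of the tested genes.

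PRX1 and PRX2, known in this alga as the chloroplast 2-Cys peroxiredoxins, supplied most of the peroxiredoxin transcript pool. PRX1 measured 221 FPKM in untreated and 321 FPKM in exposed cells at 2 h, then 154 and 198 FPKM at 12 h. PRX2 measured 121 and 161 FPKM at 2 h, then 126 and 205 FPKM at 12 h. PRX1 was thus highest at 2 h with AgNPs and lowest in untreated cells at 12 h, whereas PRX2 was highest at 12 h with AgNPs. Together they made up 64.7% of the summed PRX FPKM in untreated cells at 2 h and 63.3% at 12 h, and 56.8% and 52.4% of it in exposed cells.

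The proportion of this pair differed between the times. At 2 h the level of PRX1 was 1.83 times that of PRX2 without AgNPs and 2.00 times with them, and at 12 h it was 1.22 and 0.966 times, where the levels lay so close that no order is read from them. Such a ratio of levels within a library is the same under any scaling of that library. Neither gene stood out for its difference with AgNPs on the deposited scale. The log2 ratio of PRX1 was 0.53 at 2 h and 0.36 at 12 h, above 53.5% and 46.1% of the tested genes, and that of PRX2 was 0.41 and 0.70, above 44.8% and 65.6%. With equal FPKM sums the 2 h values were -0.81 for PRX1 and -0.93 for PRX2. The place of both genes was lower once the trend of ratios with gene span was removed. PRX1 then had -0.25 at 2 h and -0.43 at 12 h, above 32.1% and 18.5% of the tested genes. PRX2 had -0.35 and -0.07, above 26.5% and 43.5%. Whether reads were shared between the 2 genes was not tested.

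PRX3 had the largest difference with AgNPs of the family at both times. It measured 45.4 FPKM in untreated and 113 FPKM in exposed cells at 2 h, then 70.3 and 210.3 FPKM at 12 h. Both AgNP libraries lay above both controls. In the deposited values this was 2.48 times the control level at 2 h and 2.99 times at 12 h. The log2 ratio of 1.29 at 2 h was above 89.4% of the tested genes and that of 1.57 at 12 h above 98.1%, with 61 tested genes higher. With ratios centred on the median tested gene the values were 0.81 and 1.13. With libraries scaled to equal FPKM sums they were -0.034 and 1.03, so the direction at 2 h rests on the scaling while that at 12 h kept its sign under every scaling tried. With the trend of ratios with gene span removed PRX3 had 0.55 and 0.81, below 2-fold at both times. These values were above 83.7% and 95.0% of the tested genes.

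Set against the other peroxiredoxins, which needs no scaling, PRX3 took a larger part of the pool with AgNPs than without at each time. Its share of the summed PRX FPKM at 2 h was 8.58% without and 13.3% with AgNPs, and at 12 h 15.9% and 27.3%. It had rank 5 of the family in untreated and rank 3 in exposed cells at 2 h. At 12 h it had rank 3 in untreated cells and rank 1 in exposed cells, there ahead of PRX2 (205 FPKM) and PRX1 (198 FPKM). These top levels lay close together, PRX3 at 1.06 times PRX1, and with 1 library no order among them can be claimed. The ratio of PRX3 to PRX1 was 0.205 and 0.352 at 2 h without and with AgNPs, a 1.71-fold difference, and 0.457 and 1.06 at 12 h, a 2.32-fold difference. Against PRX2 the corresponding differences were 1.87-fold and 1.83-fold.

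**Figure D1:**
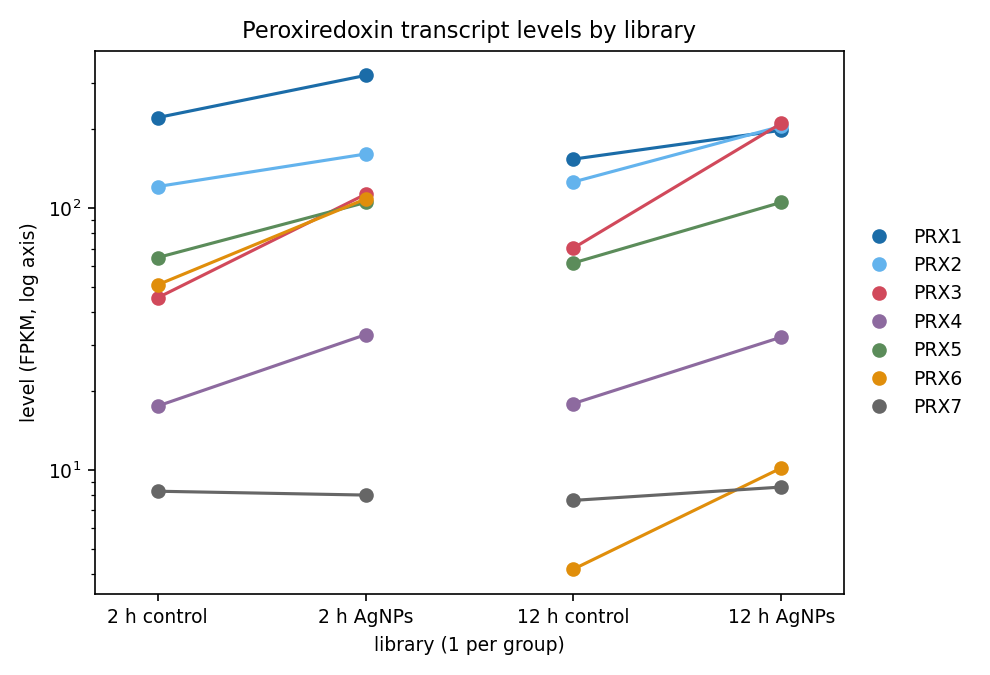
Level of each PRX gene in FPKM (log axis) in the 4 libraries, 1 library per group, with a line joining the control and AgNP library of the same time. PRX3 reaches 210.3 FPKM and the top rank at 12 h with AgNPs, PRX6 stands at 4.18 and 10.2 FPKM at 12 h against 50.9 and 108 at 2 h, and PRX7 stays between 7.65 and 8.60 FPKM.

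PRX6 followed time far more than exposure. It measured 50.9 FPKM in untreated and 108 FPKM in exposed cells at 2 h, but 4.18 and 10.2 FPKM at 12 h. Both 12 h libraries thus lay below both 2 h libraries, and at each time the AgNP library was the higher. The 12 h over 2 h log2 ratio was -3.33 in the controls, where 1 of the 3271 tested genes had a lower ratio, and -3.29 with AgNPs, where 5 did. The level at 12 h was 0.0821 times that at 2 h in the controls and 0.0939 times with AgNPs. With equal FPKM sums the log2 ratios were -4.52 and -3.64, and after removal of the trend of ratios with gene span they were -3.71 and -3.63.

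Within the family the place of PRX6 moved accordingly. It had rank 4 in both 2 h libraries, with 9.62% of the summed PRX FPKM in the control and 12.8% with AgNPs. At 12 h it had rank 7, the last, with 0.947% in untreated cells and rank 6 with 1.32% in exposed cells. At 2 h PRX3 and PRX6 stood at similar levels, PRX3 at 0.892 times PRX6 in the control and 1.04 times with AgNPs, whereas at 12 h PRX3 stood at 16.8 and 20.7 times PRX6.

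The differences of PRX6 with AgNPs at the 2 times were close in size. At 2 h the AgNP library held 2.13 times the control level and at 12 h 2.43 times. The log2 ratios of 1.07 and 1.11 were above 81.0% and 88.0% of the tested genes. Centred on the median tested gene they were 0.59 and 0.67, and with equal FPKM sums -0.26 and 0.62. With the span trend removed they were 0.45 and 0.51, above 79.0% and 85.9% of the tested genes. The 12 h ratio of 1.11 rests on low levels, and with a pseudocount of 5 it was 0.72.

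PRX4 and PRX5 kept nearly the same proportion to each other in all 4 libraries. PRX4 measured 17.5 FPKM in untreated and 32.8 FPKM in exposed cells at 2 h, then 17.9 and 32.1 FPKM at 12 h. PRX5 measured 64.7 and 105 FPKM at 2 h, then 61.7 and 105 FPKM at 12 h. For both genes the 2 AgNP libraries lay close together and above the 2 controls, which also lay close together. The level of PRX5 was 3.69 times that of PRX4 at 2 h without AgNPs and 3.20 times with them, and 3.44 and 3.27 times at 12 h.

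Their differences with AgNPs were below 2-fold at both times. PRX4 had log2 ratios of 0.87 at 2 h and 0.81 at 12 h, above 71.1% and 72.4% of the tested genes. For PRX5 they were 0.69 and 0.76, above 62.5% and 69.1%. Centred on the median tested gene, PRX4 had 0.39 and 0.37 and PRX5 0.21 and 0.32. With equal FPKM sums the 2 h values were -0.43 for PRX4 and -0.64 for PRX5. The 12 h over 2 h log2 ratio lay between -0.07 and 0.03 for both genes, in the controls as well as with AgNPs, on the deposited scale.

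PRX7 was the most even gene of the family on the deposited scale. It measured 8.29 FPKM in untreated and 8.01 FPKM in exposed cells at 2 h, then 7.65 and 8.60 FPKM at 12 h, a highest level of 1.12 times the lowest. In comparison with other genes it lay low with AgNPs: its log2 ratios of -0.04 at 2 h and 0.15 at 12 h were above 21.5% and 33.4% of the tested genes, and centred on the median gene they were -0.52 and -0.29. Ratios of long genes lay low in general in these libraries. The trend of the ratio with gene span had a value of 0.14 at 2 h and 0.01 at 12 h for a gene of the span of PRX7, and PRX7 lay 0.18 below it at 2 h and 0.14 above it at 12 h.

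**Figure D2:**
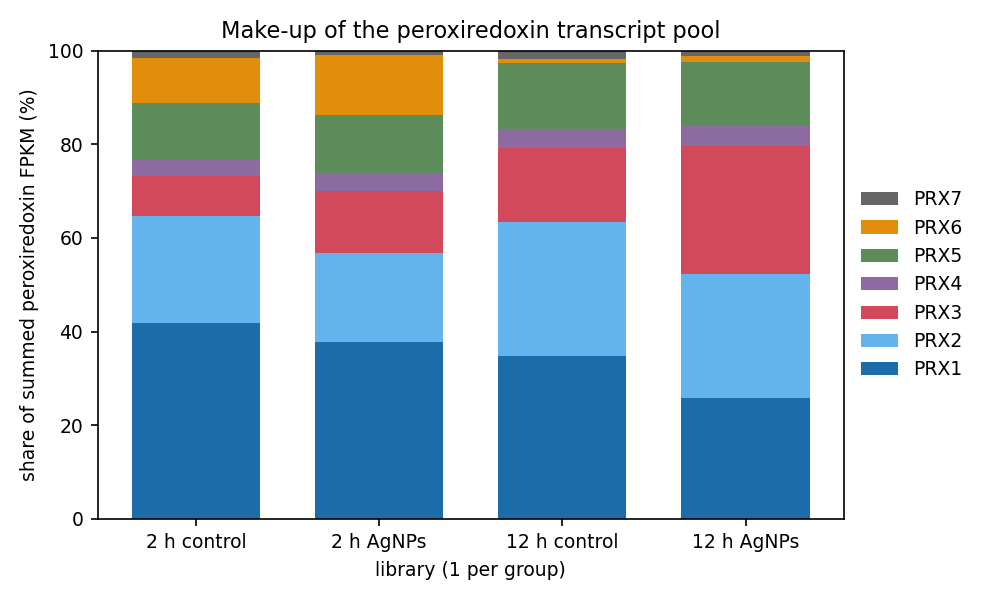
Share of each PRX gene in the summed PRX FPKM (%), for each of the 4 libraries, 1 per group. The shares do not depend on library scaling. Without and with AgNPs, PRX3 has 8.58% and 13.3% at 2 h and 15.9% and 27.3% at 12 h. PRX6 has 9.62% and 12.8% at 2 h and 0.947% and 1.32% at 12 h.

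Taking the family as 1 pool, the PRX genes summed to 529 FPKM without and 848 FPKM with AgNPs at 2 h, and to 441 and 769 FPKM at 12 h. The AgNP library held 1.60 times the control sum at 2 h and 1.74 times at 12 h. As a share of all FPKM in the library the pool at 2 h was 0.107% without and 0.0677% with AgNPs, so its direction at 2 h flipped with the denominator. At 12 h the share was 0.0386% in the control and 0.0462% with AgNPs, higher with AgNPs as in FPKM.

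With AgNPs at 2 h, 2 of the 7 genes (PRX3 and PRX6) passed 2-fold upward and 0 downward, where 22.0% of all tested genes were higher and 1.62% lower. The median log2 ratio of the 7 was 0.69, against 0.48 over all tested genes. At 12 h the same 2 genes passed 2-fold upward and 0 downward, against 16.7% and 0.459% of all tested genes, with a median of 0.76 against 0.44. With so few genes, 2 of 7 is near these backgrounds. In ratios centred on the median tested gene 0 of the 7 were at least 2-fold apart at 2 h, where 5.47% of tested genes were higher and 6.97% lower. At 12 h PRX3 alone was higher in centred ratios, where 3.03% of tested genes were higher and 5.35% lower. At both times 5 of the 7 lay above the median tested gene, the exceptions being PRX2 and PRX7 at 2 h and PRX1 and PRX7 at 12 h.

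**Figure D3:**
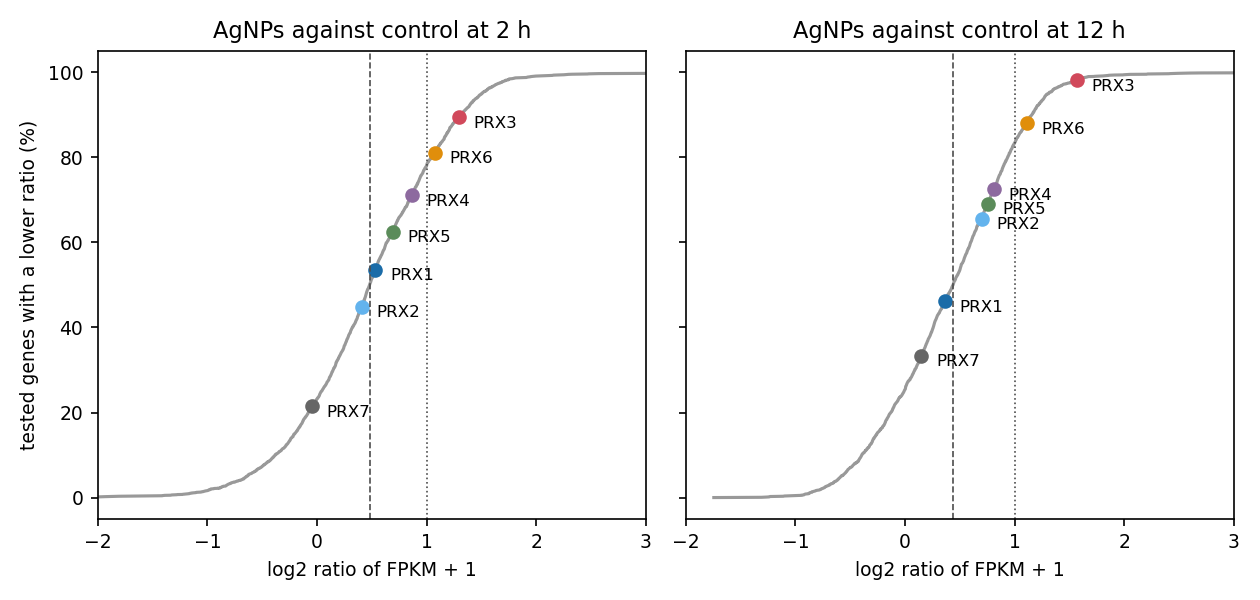
Share of the 3271 tested genes with a lower ratio (%) against the log2 ratio of FPKM + 1 of the AgNP over the control library, at 2 h (left) and 12 h (right). The grey curve is all tested genes, points are PRX genes, the dashed line is the median tested gene (0.48 and 0.44) and the dotted line 2-fold; PRX3 (1.29 and 1.57) and PRX6 (1.07 and 1.11) lie beyond it at both times.

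The control library chosen matters at 2 h. Set against the 12 h control, which also brings in the difference between the times, the 2 h AgNP library had log2 ratios of 0.67 for PRX3, 0.84 for PRX4, 0.76 for PRX5, 0.35 for PRX2 and 0.06 for PRX7, with 0.23 for the median tested gene. PRX1 had 1.06 and PRX6 4.40 in that setting, the 2 genes with the lowest 12 h over 2 h ratios in the controls (-0.52 and -3.33). With the 12 h control PRX3 was no longer at least 2-fold higher, whereas PRX1 newly was and PRX6 remained so.

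**Figure D4:**
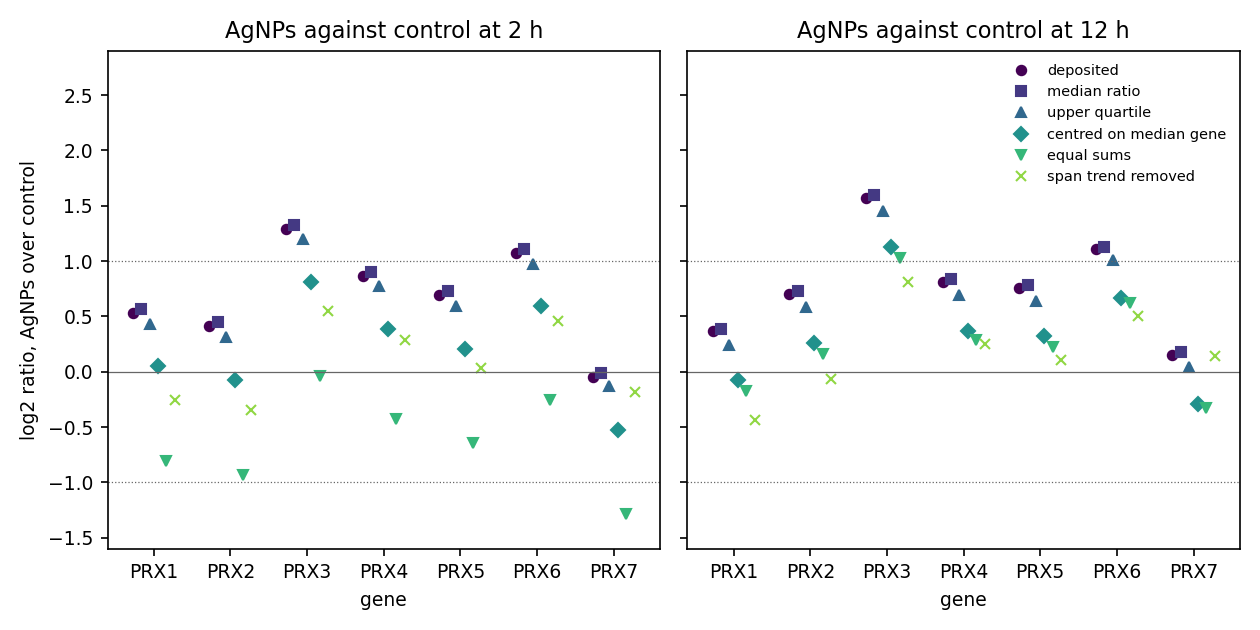
Log2 ratio of the AgNP over the control library for each PRX gene at 2 h (left) and 12 h (right) under 6 treatments of the libraries, with dotted lines at 2-fold. Equal sums move the 2 h values most (PRX3 from 1.29 to -0.034), while at 12 h PRX3 lies between 0.81 and 1.59 in all 6.

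The effects of AgNPs at 12 h and at 2 h differed by less than 2-fold for each PRX gene, from -0.17 (PRX1) to 0.29 (PRX2) on the log2 scale, with 0.27 for PRX3 and 0.03 for PRX6. Of all tested genes 1.77% differed at least 2-fold upward and 2.93% downward. With equal FPKM sums the difference was 1.09 for PRX2 and 1.06 for PRX3, where the median tested gene had 0.70.

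Between the times, 1 of the 7 genes (PRX6) was at least 2-fold lower at 12 h in the controls, where 7.80% of tested genes were, and 0 were at least 2-fold higher, where 20.2% were. With AgNPs it was again PRX6, against 8.07% of tested genes lower and 17.1% higher. With libraries scaled to equal FPKM sums 6 of the 7 were at least 2-fold lower in the controls and 2 with AgNPs, but so were 43.6% and 16.0% of all tested genes. Of the others, PRX1 was lower at 12 h (log2 ratio -0.52 in the controls and -0.69 with AgNPs, above 17.7% and 15.0% of the tested genes) and PRX3 higher (0.62 and 0.89, above 66.5% and 79.7%). With equal sums PRX1 had -1.74 and -1.10 and PRX3 -0.58 and 0.49, so the direction of PRX3 in the controls flips with the scaling. With the span trend removed PRX1 had -1.10 in the controls and -1.28 with AgNPs, at least 2-fold lower in both, and PRX3 had 0.10 and 0.37. In the controls 6 of 7 PRX genes lay below the median tested gene, whose ratio was 0.26, the exception being PRX3. With AgNPs 5 of 7 did, the exceptions being PRX2 and PRX3. These 2 time comparisons have no library in common, but each shares its libraries with the AgNP comparisons above.

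**Figure D5:**
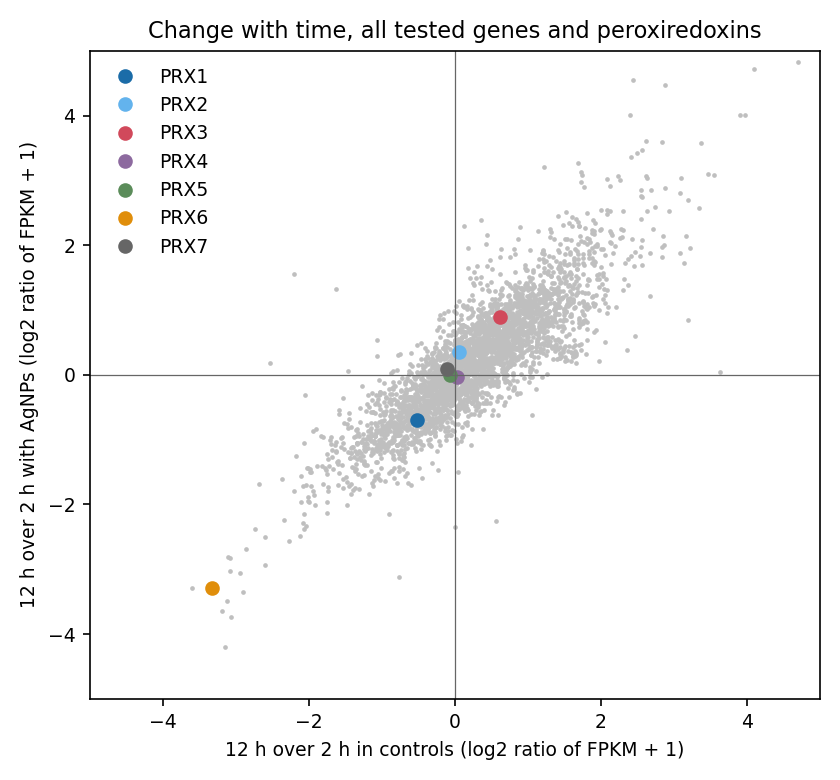
Log2 ratio of FPKM + 1 of 12 h over 2 h in the controls (horizontal axis) and with AgNPs (vertical axis), grey points for tested genes and coloured points for PRX genes, 1 library per group; 1 tested gene lies outside the axes. PRX6 lies at -3.33 and -3.29, among the lowest of the 3271 tested genes on both axes, while the other PRX genes lie between -0.69 and 0.89.

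The patterns of the 7 genes over the 4 libraries were also compared with each other and with all other tested genes that carry a symbol, by the root mean square difference of log2(FPKM + 1) after each gene's mean was taken away. Within the family PRX4 and PRX5 were most alike (0.07) and PRX3 and PRX6 least (2.04). The genes most like PRX3 were RPL6, a gene of the large subunit of the cytosolic ribosome (0.08), URM1 (0.11) and CPLD48 (0.12). RPL6 measured 1361 FPKM without and 3341 FPKM with AgNPs at 2 h, then 2378 and 6387 FPKM at 12 h.

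PRX6 had no close neighbour in this sense. The nearest were CGL78 (0.30), GUN4 (0.40), a regulator of the magnesium chelatase step of chlorophyll synthesis, and FDX3 (0.45), a ferredoxin gene. CGL78 measured 68.8 FPKM without and 149 FPKM with AgNPs at 2 h, then 10.5 and 18.7 FPKM at 12 h, and the same 3 genes were nearest with equal FPKM sums. For PRX1 the nearest were PDH2, PSBP3 and MRPL19 (0.04 each). For PRX2 they were NUO17 (0.03), AP4S4 (0.06) and ATPvL2 (0.07). COX16, LEU3 and FKB19 (0.05 each) were nearest to PRX4, and LEU3 (0.05), CGL67 (0.06) and PRX4 itself to PRX5. REF1 (0.03), EXR1 and DLD1 (0.05 each) were nearest to PRX7. With equal sums 1 or 2 of the 3 nearest genes were the same for these members and PRX3. Over 4 libraries many genes come close to any even pattern, and no function is read from these names.

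Genes that supply or share the work of peroxiredoxins were taken by symbol: thioredoxin, thioredoxin reductase, sulfiredoxin, glutaredoxin, glutathione peroxidase, glutathione synthesis and reduction, and methionine sulfoxide reductase. The symbols took in 26 genes, or 25 without the iron permease gene FTR1, and 17 were tested. The only thioredoxin symbol taken in was TRX10, whose mean of 1.56 FPKM fell short of the filter. No thioredoxin gene is thus among the 17, and thioredoxins whose symbols are written otherwise would not have been taken in. TRX10 is named after its values were seen. With AgNPs at 2 h 5 of the 17 passed 2-fold upward and 0 downward (2 and 0 in centred ratios), where 22.0% and 1.62% of all tested genes did (5.47% and 6.97% in centred ratios). The median log2 ratio was 0.54 against 0.48 over all tested genes. At 12 h 5 did so upward and 0 downward (0 and 0 in centred ratios), where 16.7% and 0.459% of all tested genes did (3.03% and 5.35% in centred ratios). The median was 0.78 against 0.44.

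Of the 4 glutathione peroxidase genes 2 were tested, GPX1 and GPX5, and these had the highest ratios of the list at 2 h. GPX1 measured 4.95 FPKM without and 17.8 FPKM with AgNPs at 2 h, a log2 ratio of 1.66, and 16.8 and 39.8 FPKM at 12 h, a ratio of 1.20. GPX5 measured 156 and 444 FPKM at 2 h (1.51) and 440.0 and 872 FPKM at 12 h (0.99). GPX5 was thus more abundant than any PRX gene with AgNPs at both times, and than all but PRX1 in the 2 h control. Both stood higher in the 12 h than in the 2 h control. The untested GPX3 measured 1.96 and 2.14 FPKM at 2 h and 0.657 and 1.12 FPKM at 12 h, and GPX4 2.25 and 3.65 FPKM, then 1.83 and 0.940 FPKM; both are named after their values were seen. MSRA3, a methionine sulfoxide reductase gene, measured 8.87 and 22.6 FPKM at 2 h (1.26). The glutaredoxin genes GRX1 (22.2 and 51.8 FPKM, 1.19) and GRX2 (32.1 and 70.3 FPKM, 1.11) were the other 2 of the 3 highest at 12 h.

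The lowest ratios of the list were those of GSH1, GSR2 and NTR4 at 2 h and of NTR2, GSH1 and NTR4 at 12 h. Of the thioredoxin reductase symbols, NTR1 had log2 ratios of 0.62 at 2 h and 0.08 at 12 h, NTR2 0.41 and -0.30, NTR3 0.11 and 0.53, and NTR4 -0.01 and -0.13. None of the 4 was thus 2-fold apart at either time. GSH1, whose product makes the precursor of glutathione, had -0.23 and -0.15, and GSR2, a glutathione reductase gene, -0.14 and -0.06. SRX1, the sulfiredoxin gene, fell short of the 5 FPKM mean and has no ratio here. It measured 1.54 FPKM without and 2.64 FPKM with AgNPs at 2 h, then 1.62 and 2.81 FPKM at 12 h, and is named after its values were seen, because it acts on 2-Cys peroxiredoxins.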

How the data were processed

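The authors deposited 1 table per library with FPKM per gene, per the file headers. Cuffdiff is named without a version in the submitters' processing notes. How reads were aligned, on which build, with which filters and with which scaling between libraries is not given in the sources used here. Gene identifiers end in the annotation version, 5.5. Groups came from the sample titles. Coordinates are those of the tables with 1 added to the start, and all 7 then equal a RefSeq gene table of assembly version 5.5.

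Log2 ratios of FPKM + 1 were computed for all genes, which understates differences of low genes, and genes averaging 5 FPKM or more were compared. A 2-fold difference was counted. No p-value was computed. Values under 0.2 FPKM were searched for steps of 1 read: relative to the library of untreated cells at 2 h, the most frequent step gave a depth of 0.566 for exposed cells at 2 h, 0.566 for untreated cells at 12 h and 0.363 for exposed cells at 12 h. Only 14.0%, 12.9% and 10.0% of the low values fell on it (within 0.05 on the log2 scale), so whole reads were not recovered and depth is unknown. FPKM holds no counts, hence no counting interval is given.

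All PRX genes are named. Of the partner genes the 3 highest and 3 lowest in each AgNP comparison and each tested thioredoxin reductase and sulfiredoxin are named, as are the 3 genes most like each PRX gene. The genes and lists were chosen with earlier results of these data known. The partner symbols took in FTR1, which in this alga names an iron permease, and the list of other enzymes CCP1 and CCP2, which name carrier proteins. The code was tested on simulated data. The software was Python 3.11.15 with pandas 2.3.3 and numpy 2.4.6, with matplotlib 3.10.9 for plots and statsmodels 0.14.6 for the lowess trend (fraction 0.5).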

Additional observations from a re-analysis of the deposited data

Results flagged for a closer look

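Effects of opposite sign in 2 settings were found for 3 PRX genes. All are small, and with 1 library per group the difference was not tested for any of them. For PRX7 the log2 ratio of AgNPs over control was -0.0435 after 2 h and 0.150 after 12 h, and a 12 h over 2 h ratio of -0.103 in the controls and 0.0906 with AgNPs. For PRX4 the 12 h over 2 h ratio was 0.0295 in the controls and -0.0303 with AgNPs. For PRX5 it was -0.0672 and 0.00178. In FPKM these 12 h levels lay between 0.923 and 1.07 times the 2 h levels.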

How the results depend on the processing

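No analysis with replicates as pairs was run, as each group held 1 library. A fit of exposure with the 2 times as pairs, which leaves 1 residual degree of freedom, was not run. With 1 library per group none was left out. Of the 7 PRX genes, 2 were at least 2-fold higher with AgNPs at 2 h. This count was 1 with upper quartile scaling, where 18.4% of all tested genes were higher. It was 0 with ratios centred on the median tested gene (5.47%), with the span trend removed (4.49%) or with equal sums (0.795%). At a 1.5-fold threshold it was 4 and at a 4-fold threshold 0. Shares of all tested genes were not computed for these 2 thresholds, here or below, so no family result is read from those counts. With equal sums 1 gene (PRX7) was lower, as were 35.6% of all tested genes, and the log2 ratios of PRX3 and PRX6 changed sign to -0.034 and -0.26. At 12 h the count of 2 became 1 with a pseudocount of 5 (10.6% of all tested genes), with centred ratios (3.03%) or with equal sums (2.32%). It became 0 with the span trend removed (2.48%) or at 4-fold, and 5 at 1.5-fold. The 1 gene lower at 12 h in the controls (PRX6) became 6 with equal sums (43.6% of all tested genes). It became 2 with the span trend removed (PRX1 and PRX6, against 11.0% of all tested genes), and at 1.5-fold 1 gene was higher. With AgNPs the 1 lower gene became 2 (PRX1 and PRX6) with equal sums (16.0% of all tested genes), with the span trend removed (8.71%) and at 1.5-fold. At 1.5-fold 1 gene was also higher. The difference of the AgNP effects had 0 genes 2-fold apart, but 2 upward with equal sums (24.1% of all tested genes). The remaining planned settings (a pseudocount of 0.1, a filter of 20 FPKM or none, and median ratio scaling) kept these counts within 1.5 times. Over the 7 genes and 4 libraries the median PRX level lay at percentile 97.1 of all genes and 84.3 of tested genes. Of 387 single-gene values under the alternatives, which include the 1.5-fold and 4-fold thresholds, 20 newly passed the threshold in use. Another 15 fell short of it with the same sign, and 2 changed sign and also fell short. The sign differed from the reported one in 35, 16 of them with equal sums, and 2 of the 35 were at least 2-fold as reported (PRX3 and PRX6 at 2 h). Leaving FTR1, CCP1 and CCP2 out of their lists, chosen after the data were seen, changed no count, as none of them was tested.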

Other observations

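Other enzymes that remove peroxide or superoxide were taken as a separate list by symbol (catalase, ascorbate peroxidase and superoxide dismutase genes). The list held 11 symbols, or 9 without the carrier protein genes CCP1 and CCP2, and 6 were tested. With AgNPs 0 of the 6 were at least 2-fold higher or lower at either time, against 22.0% of all tested genes upward and 1.62% downward at 2 h and 16.7% and 0.459% at 12 h. Their log2 ratios ran from -0.24 to 0.70 at 2 h, with a median of 0.18 against 0.48 over all tested genes, and from -0.41 to 0.94 at 12 h, with a median of 0.31 against 0.44. MSD2, a manganese superoxide dismutase gene, stood at 22.6 and 36.9 FPKM at 2 h without and with AgNPs and at 39.6 and 76.9 at 12 h. FSD1, the iron superoxide dismutase gene, stood at 77.7 and 73.2 and at 53.3 and 39.9. APX1, an ascorbate peroxidase gene, stood at 24.5 and 20.6 at 2 h and at 60.8 and 64.7 at 12 h, and CAT1, a catalase gene, at 41.5 and 38.0 and at 55.5 and 55.7. In all 4 libraries each of these 4 genes stood below PRX1 in FPKM. MSD1, another superoxide dismutase gene of the list, also did but came closer. It stood at 81.6 and 112 FPKM at 2 h and at 123 and 179 FPKM at 12 h, and is named after its values were seen.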
